A study of Mus musculus with 16 samples.

Results

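Armh4 is 1 gene of the 23609 in a table of expression values from mouse mammary tumors. It was chosen by its own values: all 5 gene trap tumors lay below all 5 wildtype tumors. The difference between the groups is therefore given as a description with no test. RNA-seq was made from primary mammary tumors of littermates that carried the MMTV-PyMT transgene, in which the mouse mammary tumor virus promoter drives the Polyoma middle T antigen in mammary epithelium. The wildtype group had both normal copies of Resf1 (retroelement silencing factor 1). The gene trap group was Resf1 +/-: a lentiviral enhancer/gene trap in the first exon of Resf1, made on C57BL/6, expresses an EGFP-cre fusion and truncates the Resf1 message, and carriers were bred to FVB MMTV-PyMT mice. Both groups were therefore F1 animals, and the gene trap group rests on 1 insertion line. The full strain name in the paper's methods also lists a part from another strain, and whether it differed between the groups is not stated. The labels describe 8 tumors per group, and 5 per group were matched by name to a column of values. No animal's age is given in the labels. The luminal markers that define mammary tumor epithelium were present in all 10 tumors, with Epcam between 19190 and 25278 and Krt8 between 16809 and 24801.

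Armh4 encodes armadillo-like helical domain containing 4, a membrane protein with a single transmembrane segment. It has been described as a partner of gp130 (encoded by Il6st), the shared receptor subunit of the IL-6 cytokine family, that lowers STAT3 signaling, and as a partner of RICTOR, the defining subunit of mTOR complex 2, which phosphorylates AKT. STAT3 signaling is active in mammary epithelium during involution, and PyMT activates the PI3K and AKT pathway. Resf1, the targeted gene, encodes a nuclear protein known for silencing of endogenous retroviruses and studied here for its association with G-quadruplex sequences.

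In the annotation used here (GENCODE mouse release 21), Armh4 (ENSMUSG00000036242) is a protein-coding gene on the minus strand of chromosome 14 with 12 distinct exons. The 250 bases before its annotated start are shown because the study's question concerns G-quadruplex sequences, which form from runs of guanine. They are from RefSeq, build GRCm38.p6, at chr14:49783384-49783633, read on the minus strand 5′ to 3′, and the capitals mark runs of at least 3 G or 3 C.

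Armh4 promoter: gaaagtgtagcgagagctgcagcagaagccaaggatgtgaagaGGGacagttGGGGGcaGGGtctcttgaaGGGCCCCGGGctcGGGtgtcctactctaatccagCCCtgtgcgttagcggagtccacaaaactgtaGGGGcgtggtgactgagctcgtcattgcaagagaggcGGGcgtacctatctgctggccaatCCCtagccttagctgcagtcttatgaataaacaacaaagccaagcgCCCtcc

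The window held 8 runs of G and 4 runs of C, with a GC content of 56.8% against a median of 52.4% for the windows of all genes. A common quadruplex pattern, 4 runs of GGG separated by loops of 1 to 7 bases of any kind, had no match in it on either strand. Of 27025 genes with such a window, 18.4% had a match on at least 1 strand. With loops of up to 12 bases, the Armh4 window had a match on the strand shown, as did 28.0% of genes on at least 1 strand. The longest annotated Armh4 transcript (8831 bases) had 0 matches of the pattern with the shorter loops, in its own sequence or in the complement. That pattern was found in 39.6% of 14520 tested genes and in 59.5% of the 985 genes with a transcript of similar length. A match is a stretch of letters, and its absence says only that these letters are not in these sequences. The paper's predicted quadruplexes at RESF1 sites were enriched for a looser kind with shorter guanine runs, mainly in transcribed sequence. That kind was not searched for here, in the window or in the transcript.

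Values are the authors' normalized estimated counts per gene, in which a column's values are divided by a size factor and which keep no record of depth. Column totals lay between 31995100 and 42153600. Gene trap tumor 2 stood apart: it had the highest total, 36.6% of its values in the 20 highest genes against 21.2% to 29.0% in the other tumors, and a score on the first principal component of 91.8 against -18.6 to -4.78. Values that moved when this tumor was omitted are given both ways for the results below that turn on them. It is not stated that reads were counted by strand.

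Resf1 itself had a lower mean in the gene trap group, with overlapping values. Its values were 4215, 4397, 3881, 4487 and 3517 in wildtype tumors 1 to 5, and 4029, 3066, 3686, 3392 and 3409 in gene trap tumors 1 to 5. The groups overlapped, since gene trap tumor 1 lay above wildtype tumors 3 and 5. The log2 difference was -0.22 (SE 0.09), with an unadjusted p of 0.031 and an adjusted p of 0.9997 by limma and p = 0.0635 by the exact two-sided permutation test, in which the smallest p that 5 against 5 tumors allow is 0.00794. Without gene trap tumor 2 it was -0.17 (SE 0.09), with an unadjusted p of 0.068 by limma. The value covers the whole gene, so it does not separate truncated from full transcripts.

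Armh4 was low in every gene trap tumor. Its values in wildtype tumors 1 to 5 were 110.6, 127.85, 131.5, 147.8 and 129.3, a mean of 129 ± 13.2 (SD, n = 5). In gene trap tumors 1 to 5 they were 81.5, 74.4, 74.5, 85.4 and 98.5, a mean of 82.9 ± 9.92 (SD, n = 5). The lowest wildtype tumor (1) and the highest gene trap tumor (5) were 12.1 apart, so the groups did not overlap, and the gap was 0.17 on the log2(value + 1) scale. Wildtype tumor 4 was the highest of all, and gene trap tumors 2 and 3 were nearly equal at the bottom. The fitted log2 difference, gene trap minus wildtype, was -0.64 (SE 0.14), a fold of 0.642, and the gene trap mean was 36.0% lower. The size stayed between -0.70 and -0.59 over fits that each omitted 1 tumor, and was -0.60 without gene trap tumor 2. In bulk tumors, fewer cells that express a gene and less of its RNA per cell cannot be told apart.

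**Figure D1:**
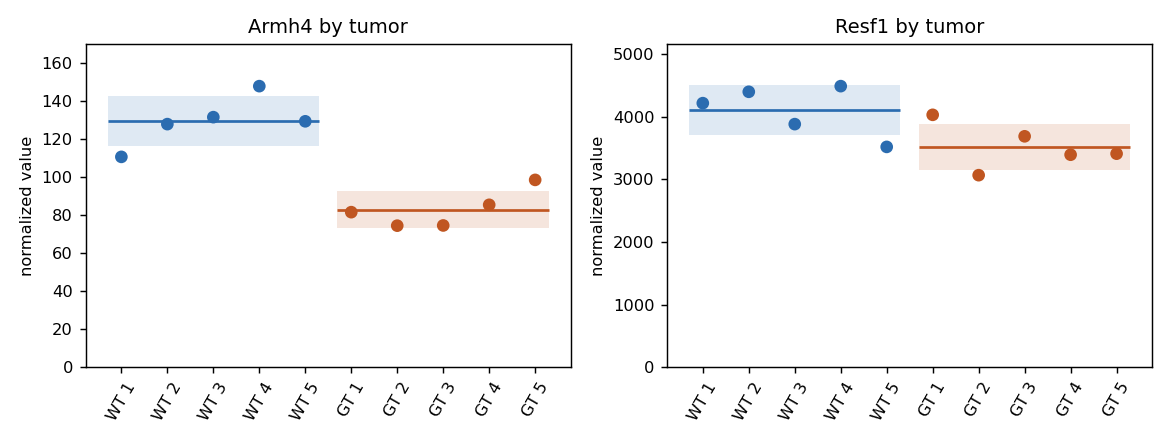
Normalized value of Armh4 (left) and of Resf1 (right) in each tumor, wildtype (WT) in blue and gene trap (GT) in orange. Each point is 1 tumor, the line is the group mean and the band is the mean ± SD (n = 5); the Armh4 groups are separated by 12.1, whereas the Resf1 groups overlap.

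The spread of Armh4 within groups is a description only, because a gene chosen for groups that do not overlap is favored to have a small one. Its within-group SD on the log2 scale was 0.16, against a median of 0.32 for 741 protein-coding genes with a mean between 80 and 140, and 5.26% of these had a smaller SD. The coefficient of variation was 10.2% in wildtype and 11.96% in gene trap tumors. Per kilobase of annotated exon, Armh4 measured 11.5, against a median of 164 over 14545 tested protein-coding genes, and 9.42% of them were lower. Armh3, a gene with the same named domain, had a log2 difference of -0.06 between groups and lay between 392 and 477 in single tumors. Armh1 was below the mean of 10 required for a test.

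The non-overlap by which Armh4 was chosen was counted over all genes, and nothing is read from it. Of 21034 tested genes, 55 (0.261%) had all gene trap values below all wildtype values, Armh4 included, and 56 (0.266%) had all of them above. Armh4 had the tenth widest gap of the 55 and place 20 by log2 difference. Of the 55, 32 were annotated pseudogenes and 21 were protein coding, a share of 38.2% against 70.8% of tested genes. Pseudogenes share reads with their parent genes, so those values are uncertain. By limma with Benjamini-Hochberg adjustment, 0 genes (0%) were called between the groups, the smallest adjusted p was 0.9997, and 479 genes (2.28%) had an unadjusted p under 0.05, 201 lower and 278 higher.

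Other protein-coding genes in the separated set carried annotated functions of several kinds, and these examples were chosen after their values were seen. Dusp5, a nuclear phosphatase that inactivates ERK, had a log2 difference of -0.62. Egr2, an immediate early transcription factor, had -0.41. St3gal5, the enzyme that makes the ganglioside GM3, had -0.31. Over the 10 tumors, 18 of the other separated genes had r of at least 0.7 with Armh4, which the separation itself favors.

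No gene directly next to Armh4 was fitted, and the 3 fitted neighbors, with small differences, all lay on 1 side of Armh4. On the side before it in the annotation's order, Naa30, a catalytic subunit of an N-terminal acetyltransferase, had a log2 difference of 0.04 (SE 0.06). Ap5m1, a subunit of the AP-5 adaptor complex, had 0.05 (SE 0.09). Exoc5, a subunit of the exocyst, had -0.09 (SE 0.09), with gene trap tumor 2 at 1791 and the other tumors between 2346 and 2559. Without that tumor the Exoc5 difference was 0.00 (SE 0.06). These 3 genes were measured at 1491 to 1696, 1442 to 1890 and 1791 to 2559 in single tumors, and the groups overlapped for each. Closer to Armh4 on that side, Slc35f4 is not among the IDs of the table and ccdc198 lay between 1.1 and 9.4. On the other side the 5 nearest protein-coding genes are olfactory receptor genes, and 0 of them are among the table's IDs. Of 4 genes annotated as overlapping Armh4, 1 had values: the pseudogene Gm16082, between 1.7 and 10.1, far below Armh4. The annotated antisense gene Gm36146 has no values here, and without stated strand counting its reads could not be told from those of Armh4.

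To find genes that follow Armh4, the Pearson correlation (r) of log2 values was computed over the 10 tumors. Because the step between the groups adds to this r for any gene that differs between them, a centred r was also computed after each gene's group mean was removed. All are descriptions over n = 10 tumors that share group, normalization and tissue makeup, with no test. Over the 10 tumors 162 genes (0.770%) had r of at least 0.7 and 263 had r of -0.7 or lower. Centred within groups, the counts were 331 and 302. Of the genes with r of at least 0.7, 36 met it by both measures, 22.2% of the first list and 10.9% of the second.

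The 8 named genes with the highest r over the 10 tumors lay between 0.83 and 0.85 (Spearman's rho 0.78 to 0.92). Insig2, an endoplasmic reticulum protein that holds back cholesterol synthesis, led with r = 0.85 and centred r = 0.82. It measured 1028, 1104, 1086, 1138 and 1071 in wildtype tumors 1 to 5 and 920, 972, 928, 1052 and 1084 in gene trap tumors 1 to 5. The groups overlapped, and gene trap tumor 5, the highest for Armh4 in its group, was also the highest for Insig2.

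Stat6, the transcription factor of IL-4 and IL-13 signaling, had r = 0.84 and the same centred value, 0.84. Its wildtype values were 3168, 3219, 3223, 3486 and 3274, and its gene trap values were 2969, 3022, 2987, 3219 and 3242. Wildtype tumor 4 was the highest for both genes, and gene trap tumors 1, 2 and 3 were the lowest for both.

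Lamp1, a major glycoprotein of the lysosomal membrane, had r = 0.83 and rho = 0.92, with 10430 to 11450 in wildtype and 8796 to 10495 in gene trap tumors. Stx12, a syntaxin of endosomes, had r = 0.85 and Commd10, a subunit of an endosomal sorting complex, had r = 0.85. Sh3bgrl, a small thioredoxin-like protein, had r = 0.85 and Ccdc136, a coiled-coil protein, had r = 0.84. Armcx6, a member of an armadillo repeat family on the X chromosome, had r = 0.83 and was the only one of the 8 whose groups did not overlap, with 155 to 198 in wildtype and 126 to 148 in gene trap tumors. Its centred r was 0.26, so its likeness to Armh4 lay in the step between groups.

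The 8 correlations lay between 0.78 and 0.91 with any 1 tumor omitted. Without wildtype tumor 4 and gene trap tumor 2, the tumors farthest from the Armh4 median, r lay between 0.75 and 0.88. Without gene trap tumor 2 alone it lay between 0.81 and 0.86. With quantile normalization, Stx12, Sh3bgrl and Lamp1 fell to 0.70, 0.58 and 0.66, and Insig2 was at 0.92.

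The genes that ran against Armh4 over the 10 tumors were more alike in position. Msh6, a DNA mismatch repair protein, had the lowest r, -0.90 (rho -0.85, centred -0.65). Its values were 2129, 1937, 1998, 1893 and 1925 in wildtype tumors 1 to 5 and 2372, 2344, 2166, 2357 and 2080 in gene trap tumors 1 to 5. Wildtype tumor 1, the lowest of its group for Armh4, was the highest of its group for Msh6, and gene trap tumor 5 was the reverse.

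Ccdc167 had r = -0.88, Cebpz, a CCAAT-binding protein, had -0.87, and Zfp53, a zinc finger protein, had -0.86. Cebpz kept its r when centred, at -0.85. All 4 of these genes are on chromosome 17. The fifth, Rgs3, which accelerates GTP hydrolysis by G protein alpha subunits, is on chromosome 4 and had r = -0.86. Without the 2 farthest tumors, the 5 lay between -0.84 and -0.77.

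**Figure D2:**
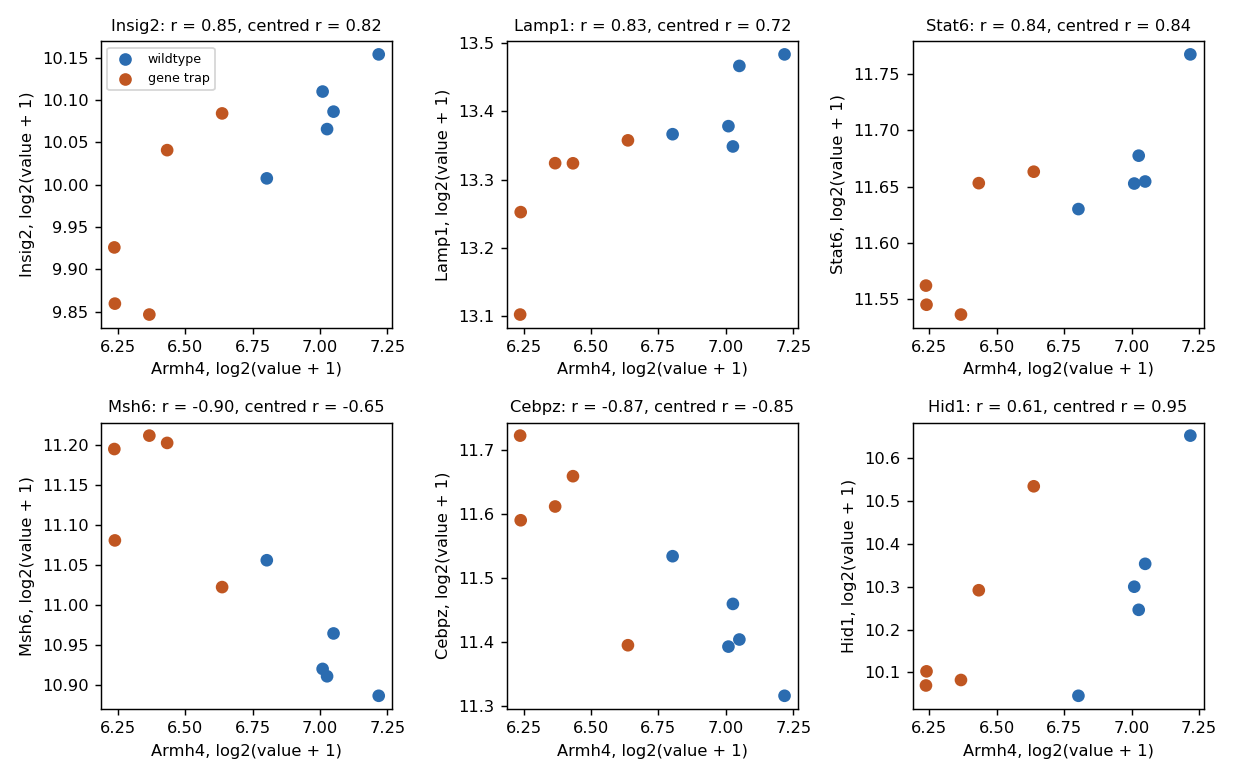
Armh4 against 6 genes, log2(value + 1) on both axes, 1 point per tumor (blue wildtype, orange gene trap). Insig2, Lamp1 and Stat6 were high where Armh4 was high, Msh6 and Cebpz were low there, and Hid1 was closely ordered with Armh4 inside each group (centred r = 0.95) although its groups overlapped (r = 0.61).

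Within groups other genes led the ranking: the 8 highest named genes by the centred measure shared 0 with the 8 above. Both lists are cut at 8, and 6 of the 8 above also had a centred r of at least 0.7. Hid1, a protein of the trans-Golgi network, had a centred r of 0.95. It measured 1056, 1260, 1307, 1608 and 1213 in wildtype tumors and 1083, 1074, 1098, 1252 and 1482 in gene trap tumors. In both groups the tumor with the highest Armh4 had the highest Hid1, and the group difference of Hid1 was -0.10 on the log2 scale (SE 0.12).

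Kat8, an acetyltransferase for histone H4, and Ppp2r2d, a regulatory subunit of protein phosphatase 2A, each had a centred r of 0.91. Amd1, which makes decarboxylated S-adenosylmethionine for polyamine synthesis, and Slc25a16, a mitochondrial carrier, were at 0.90. Ppp1r2, an inhibitor of protein phosphatase 1, was at 0.89, and Pak1, a kinase activated by Rac and Cdc42, and Ndfip1, an adaptor of NEDD4 ubiquitin ligases, were at 0.88. The log2 differences of these 8 genes between the groups lay between -0.10 and 0.00, and their r over the 10 tumors only between 0.36 and 0.69. Leaving out each tumor in turn gave centred values between 0.79 and 0.97. With quantile normalization Ppp2r2d fell to 0.69 and Ppp1r2 to 0.64.

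The lowest centred values belonged to Pigb, an enzyme of GPI anchor synthesis, at -0.91, and to Alx4, a homeobox factor, at -0.91. Samd12 and Acat3, a cytosolic acetyl-CoA acetyltransferase, were both at -0.87, and the gene AI504432 was at -0.86. Alx4 measured 91.9 in wildtype tumor 1 and 42.8 in wildtype tumor 4, and 77.7 in gene trap tumor 1 and 32.5 in gene trap tumor 5. Its r over the 10 tumors was -0.17, and the groups overlapped. With quantile normalization Acat3 was at -0.53.

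The genes most unlike or most like Armh4 clustered by chromosome. Among 12867 protein-coding genes with a mean of at least 50, chromosome 17 holds 4.91%, but it held 49 (24.5%) of the 200 genes with the lowest r. Chromosome 3 held 33 (16.5%) of them against 4.93% of genes. Of the 200 genes with the highest centred r, 56 (28.0%) were on chromosome 7, which holds 7.64%, Kat8, Ppp2r2d and Pak1 among them. Without gene trap tumor 2 these counts were 45, 39 and 46.

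Other tumors moved them further, in lists drawn anew with 1 tumor omitted, an alternative added after seeing the data. The chromosome 17 count lay between 27 (13.5%, without gene trap tumor 3) and 50. The chromosome 3 count lay between 15 (7.50%, without wildtype tumor 2) and 42, and was 19 without gene trap tumor 1. The chromosome 7 count lay between 29 (14.5%, without wildtype tumor 1) and 64, and was 31 without gene trap tumor 5.

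**Figure D3:**
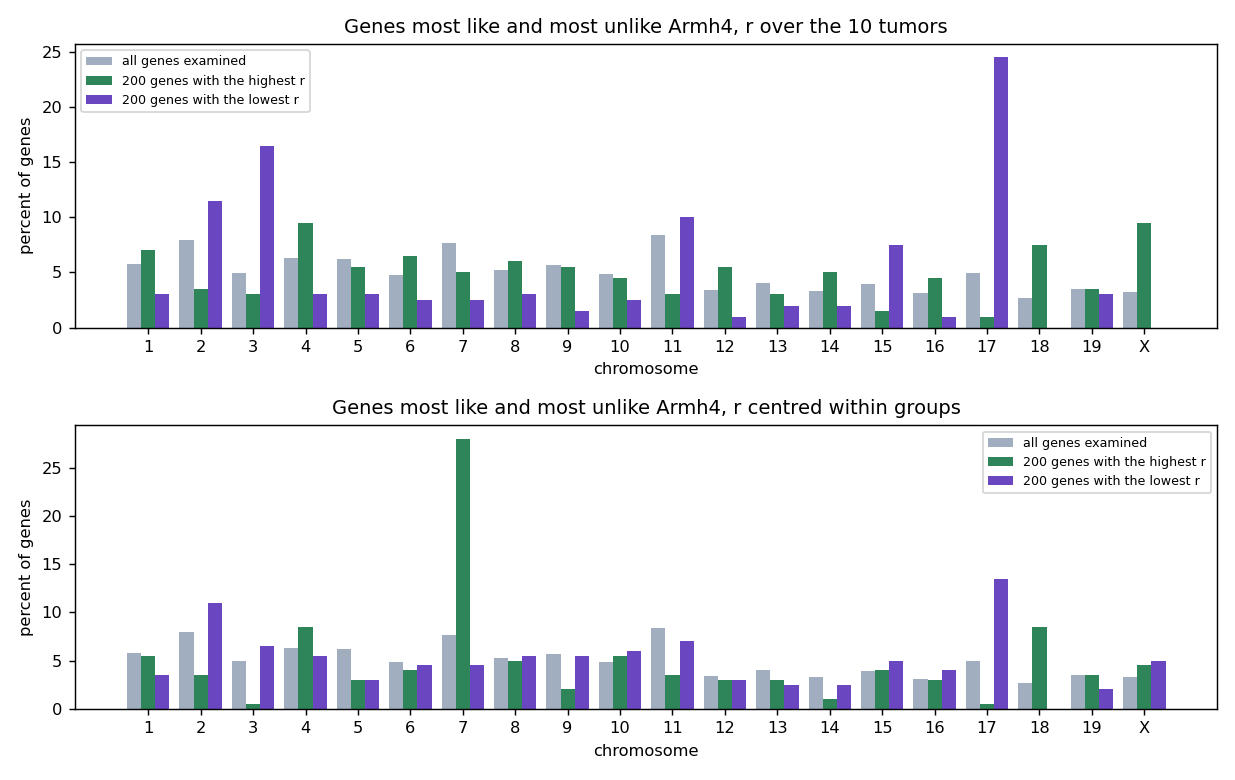
Percent of genes on each chromosome among all 12867 genes examined (grey), the 200 with the highest r with Armh4 (green) and the 200 with the lowest r (purple), over 10 tumors (top) and centred within groups (bottom). Chromosome 17 stands out in the lowest r of the top panel (24.5%) and chromosome 7 in the highest r of the bottom panel (28.0%).

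The median deviation of a chromosome's genes in a tumor, in log2, moved with these lists. For chromosome 17 it was -0.04, 0.05, -0.07, 0.00 and -0.11 in wildtype tumors 1 to 5, and -0.02, 0.17, 0.04, 0.03 and 0.00 in gene trap tumors 1 to 5. This range, 0.28, was the widest of 20 chromosomes, nearly equal to that of chromosome 11, and the median range was 0.11. Armh4 had r = -0.58 with the chromosome 17 median (centred -0.27), and -0.42 (centred 0.00) without gene trap tumor 2. For chromosome 7 the median was lowest in wildtype tumor 1 (-0.11) and gene trap tumor 1 (-0.12) and highest in gene trap tumor 5 (0.10), and the centred r was 0.55, or 0.75 without gene trap tumor 2. For chromosome 18 the centred r was 0.84. Chromosome 14, where Armh4 lies, stayed between -0.04 and 0.02, the third narrowest range.

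When each chromosome's median was removed from its genes, an alternative added after seeing the data, chromosome 17 held 9 of the 200 lowest and chromosome 7 held 18 of the 200 highest centred genes. The removal takes out what a chromosome's genes share in a tumor, so a fall in these counts was largely built in. The lists kept 122 and 133 of their 200 genes. Hid1 was then at 0.92, Insig2 at an r of 0.80 and Stat6 at 0.84, while Msh6 was at -0.64. Whether the copy number of these chromosomes differed between tumors was not tested. The Armh4 difference itself was -0.63 after the removal.

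**Figure D4:**
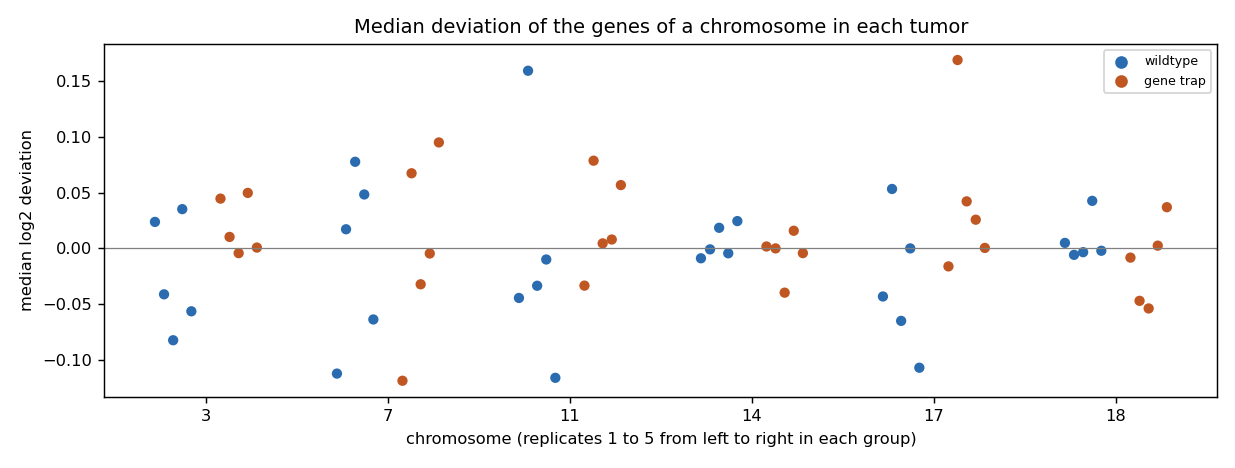
Median log2 deviation of the genes of 6 chromosomes in each tumor (blue wildtype, orange gene trap; replicates 1 to 5 from left to right). Chromosome 17 reached 0.17 in gene trap tumor 2, whereas chromosome 14, where Armh4 lies, stayed between -0.04 and 0.02.

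The genes of the pathways tied to ARMH4 were read from lists of 99 genes, of which 93 were tested. None was called by limma (0 of 93, beside 0% of all genes), and 2 had an unadjusted p under 0.05, 2.15% against 2.28% of all. The median log2 difference of the 93 was -0.01, and that of all genes was 0.00. No member separated the groups, beside 0.261% of all tested genes that lay lower and 0.266% that lay higher. These shares are so small that nothing is read from it.

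Among 8 tested ligands of the gp130 family, log2 differences ran from -0.46 for Osm (oncostatin M) to 0.74 for Il12a, both at low values. Among 7 receptors they lay between -0.01 and 0.14. Il6st, the gp130 gene itself, measured 4330.5 to 5209 in wildtype and 4251 to 5469 in gene trap tumors, with a log2 difference of 0.08 (SE 0.09) and a centred r of -0.48, or -0.66 without gene trap tumor 2. Gene trap tumor 5, with the highest Armh4 of its group, had the lowest Il6st.

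Of the 18 JAK and STAT genes, Stat3 had a log2 difference of 0.05 (SE 0.10) and a centred r of 0.31. Stat5b and Stat5a, the prolactin-activated members, had centred r of 0.81 and 0.71, with differences of -0.01 and 0.06 between the groups. With chromosome medians removed these were 0.43 and 0.53 (both genes are on chromosome 11). Ptpn6, a phosphatase of blood cells, was at -0.75.

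Of 22 STAT3 target genes, 15 had a lower and 7 a higher fitted value in the gene trap group, with a median of -0.05. Over all tested genes other than Armh4, 10220 were lower and 10813 higher. Socs3, the feedback inhibitor of gp130, measured 549 to 1314 in wildtype and 507 to 815 in gene trap tumors, a log2 difference of -0.31 (SE 0.24). Fos, an immediate early gene, had -0.77 (SE 0.29, adjusted p 0.9997 by limma), with 1531 to 5416 against 975 to 2284. Without gene trap tumor 2 the Fos difference was -0.58 (SE 0.27).

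On the mTORC2 side, Rictor had a log2 difference of -0.03 (SE 0.09) and a centred r of 0.01. Mapkap1, which encodes the subunit SIN1, had -0.06 (SE 0.08) and 0.36. Without gene trap tumor 2 the differences were 0.04 and 0.00, and the centred r were -0.38 and 0.10. Telo2, which assembles mTOR complexes, had a centred r of -0.74 and r = -0.75 and lies on chromosome 17. Akt1 had -0.05 (SE 0.09) and a centred r of 0.53. The 28 genes of the AKT pathway lay between -0.14 and 0.12, and Phlpp2, a phosphatase of AKT, had the lowest centred r of the 93, -0.77. By size, 6 of the 93 (6.45%) had a centred r of at least 0.7 in either direction, against 3.01% of all genes, and 2 (2.15%) had such an r over the 10 tumors, against 2.02%.

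**Figure D5:**
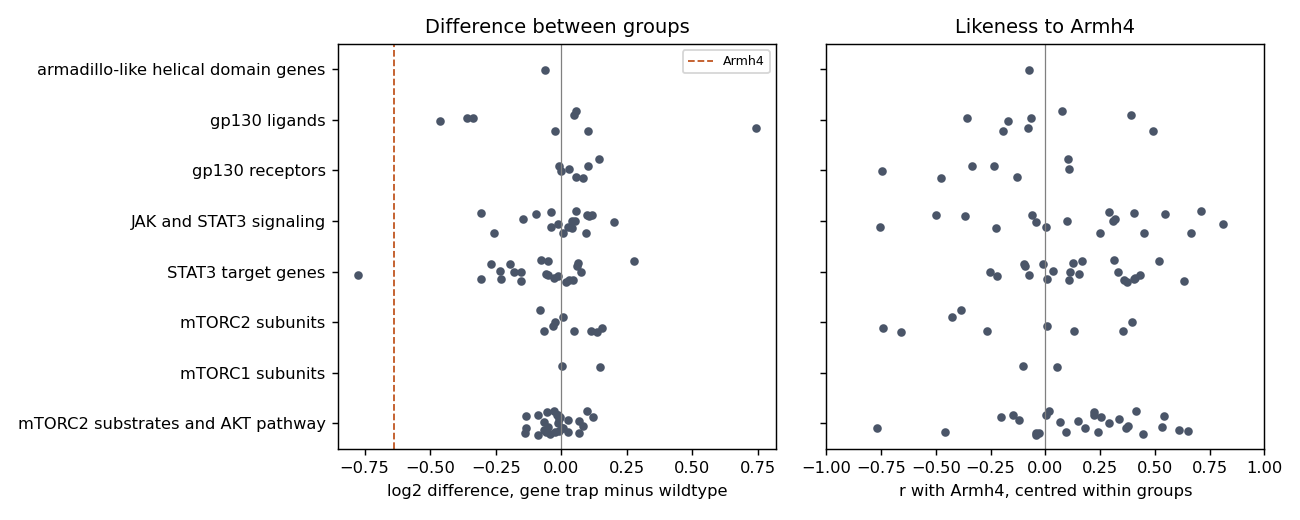
Log2 difference between the groups (left) and centred r with Armh4 (right) for the tested genes of 8 lists, 1 point per gene. The dashed line marks Armh4 (-0.64); the receptors and the mTORC2 and AKT genes lie between -0.14 and 0.16, and only Fos lies beyond Armh4 on that side.

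Marker scores, the mean z score of the tested markers of a cell type, overlapped between the groups for all 18 lists. Few single genes failed to overlap either (0.261% of tested genes lower and 0.266% higher), so nothing is read from this. Over the 10 tumors, the highest r with Armh4 was 0.61 for the basal and myoepithelial list (10 of 10 markers tested), whose scores ran from -0.14 to 1.05 in wildtype and from -1.22 to 0.07 in gene trap tumors. Within groups its r was -0.23. Its defining markers were present in every tumor, with Krt5 between 550 and 1685 and Trp63 between 521 and 1159. The part of this score in the Armh4 difference was not tested.

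Within groups the largest values were -0.68 for the B and plasma cell list (4 of 10 markers tested), -0.66 for the lymphatic endothelial list (7 of 7) and 0.62 for the luminal epithelial list (12 of 12). Without gene trap tumor 2 these were -0.78, -0.74 and 0.79. Before centring, r of the same lists over the 10 tumors was -0.17, -0.37 and 0.34. The B and plasma cell score ran from -0.83 to 0.82 in wildtype and from -0.96 to 1.98 in gene trap tumors, with the highest value in gene trap tumor 3, where Armh4 was 74.5. The T and NK cell, dendritic cell and neutrophil scores were also highest in that tumor, with centred r of -0.61, -0.50 and -0.42. The macrophage and mast cell lists had centred r of 0.00 and 0.15. The luminal score was highest in wildtype tumor 4 (0.93), the tumor with the highest Armh4, and ran from -0.59 to 0.93 in wildtype and from -0.74 to 0.41 in gene trap tumors. Armh4 had r = -0.12 with the column total and -0.15 with the share of the 20 highest genes, and both turned to 0.44 without gene trap tumor 2 (0.55 and 0.48 centred). The part of these measures in the results was not tested.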

How the data were processed

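RNA from primary mammary tumors was isolated with Trizol and libraries were made with a stranded total RNA kit, per the labels. The submitters' processing notes name Partek, STAR 2.7.8a, DESeq2 and build mm39. The authors deposited a signal per gene: estimated counts normalized by median ratio, with 0 zeros and no common step, so whole reads and depth could not be recovered. Of 16 columns, 10 matched the label of a tumor and the other 6 were set aside. The plan allowed for a count test, and limma was used because the values are normalized. Values were log2-transformed after addition of 1. The 21034 genes with a mean of at least 10 were fitted by limma 3.58.1 (R 4.3.3) with trend, the group as the factor and Benjamini-Hochberg adjustment at 0.05. Tested on simulated data with 200 changed genes, this found 50 at 1.5-fold, 119 at 2-fold and 182 at 4-fold, with 1, 8 and 9 false calls. The simulation drew each gene independently, without the shifts that genes share in the real tumors, so recovery in these data can differ. Symbols matched 22899 IDs (97.0%), and GENCODE types 97.6% of tested IDs. Its build is not mm39, so its coordinates were not joined to the values.

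Named were Resf1, Armh4, 5 neighbors per side, the 8 highest and 5 lowest genes by r and by centred r (mean at least 50, no gene models or pseudogenes), listed pathway genes (1 result among them is not reported here) and the 3 marker lists with the largest centred r. The gene and all lists were chosen with earlier results of these data known. Labels do not say whether tumors of a group came from separate animals, so p-values measure the spread between tumors.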

Additional observations from a re-analysis of the deposited data

Results flagged for a closer look

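A tumor was examined more closely when its gap to the nearest tumor of its group exceeded 0.71 of the group's range. This happened in 7 of 92 groups of 5 values examined. For independent measures chance flags about 1 in 20, or 4.6 of 92. Many of these measures were chosen for their r with Armh4 or move together, so nothing is read from the count.

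Rgs3 was 782 in gene trap tumor 5 against 931 to 989 in the other tumors of that group, and Ppp1r2 was 1644 there against 1377 to 1447; this tumor had the highest Armh4 of the group. Samd12 was 1152 in wildtype tumor 1 against 835 to 902, where Armh4 was the lowest of its group. Rgs3, Ppp1r2 and Samd12 were chosen for extreme r or centred r, which favors outlying values in such tumors. Exoc5 was 1791 in gene trap tumor 2 against 2364 to 2524. The B and plasma cell score was 1.98 in gene trap tumor 3 against -0.96 to -0.37. In wildtype tumor 4, the tumor with the highest Armh4, the lymphatic endothelial score was -0.99 against 0.01 to 0.24, and the median deviation of chromosome 18 was 0.0426 against -0.0058 to 0.0049.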

How the results depend on the processing

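The Armh4 difference lay between -0.70 and -0.59 over 16 alternatives, its gap between 0.15 and 0.19 over 3, and the Resf1 difference between -0.28 and -0.17 over 16, with 0 of these past an adjusted p of 0.05. Under 18 alternatives limma called 0 genes, with 307 to 694 at an unadjusted p under 0.05, and 0 pathway genes. Counts of genes past a threshold moved more. With a mean of at least 50, 35 genes separated the groups as Armh4 did. Leaving out each tumor gave 72 (gene trap tumor 2) to 163 (gene trap tumor 4), all but the first over 1.5 times 55 (added after seeing the data). Fewer tumors make separation easier, and the 55 cannot lose it when a tumor is left out, so their presence in these lists tests nothing. With quantile normalization 46 genes separated the groups, 31 of the 55 among them. Scaling to the column total of protein-coding genes gave 48, with 37 of the 55. Removal of chromosome medians gave 50, with 34 of the 55. Genes with r of at least 0.7 numbered 369 by Spearman's rho and 331 when centred, and 194 to 455 with each tumor left out: 283, 254, 248 and 289 without wildtype tumors 1, 2, 4 and 5, and 252, 274, 395, 455 and 287 without gene trap tumors 1 to 5. Within groups they numbered 398 to 657: 525, 503, 657 and 501 without wildtype tumors 1, 2, 4 and 5, and 636 and 498 without gene trap tumors 2 and 3. Membership moved as well. Of the 162 genes over the 10 tumors, 96 (without gene trap tumor 2) to 162 stayed with a tumor left out. Of the 331 within groups, 143 (without gene trap tumor 5) to 331 stayed. Quantile normalization kept 105 of the 162 and 133 of the 331. With quantile normalization 5 of the 8 named followers over the 10 tumors stayed at 0.7 or above, and 6 of 8 within groups. A fixed cutoff of r is also easier to pass with fewer tumors or after centring. The part of this in these shifts was not tested. Same-numbered tumors are different samples, and their deviations correlated between -0.16 and 0.15. With the replicate number as a block, the Armh4 difference was -0.64, that of Resf1 was -0.22, and 0 genes were called. With 5 tumors per group and no depth in the values, changes near 1.5-fold were often missed in simulation of independent genes (50 of 200 found).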
